A study of Mus musculus with 6 samples.

Results

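The genes described here are those of the cytokine axis built on the common gamma chain, with IL-7, IL-15 and IL-2 as ligands, in mouse thymus. They were taken by symbol from a table of read counts: Il7, Il15 and Il2 for the ligands, and Il7r, Il15ra, Il2rb, Il2rg, Il21r and Il9r for the receptor chains, 9 of 24054 genes in all. Whole-thymus mRNA was sequenced in 3 libraries from control mice and 3 from K5-rtTA:TetO-RANKL mice. In the latter a keratin 5 promoter, active in basal and medullary epithelium, drives a doxycycline-dependent activator, and this turns on a TetO transgene for the cytokine RANKL. Controls were described as monogenic, and doxycycline was given to both groups in food and water. One text gives 1 week of doxycycline from week 8 of life and another gives 2 weeks from week 9, so the schedule is uncertain. The single comparison of the series, RANKL over control, asks how induced RANKL changes the transcripts of the thymus.

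The cytokines of this family signal through receptors that share one subunit, the common gamma chain encoded by Il2rg. IL-7, made by thymic epithelium, binds Il7r with the gamma chain and keeps early thymocytes and naive T cells alive. IL-15 is held by its high-affinity chain Il15ra on the producing cell and presented to neighbours that carry Il2rb and the gamma chain, such as NK cells and memory-type T cells. Downstream, the kinases Jak1 and Jak3 activate Stat5a and Stat5b, and Cish and the Socs genes feed back on the signal.

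Libraries held 18254870 to 25357060 counted reads. The induced gene, Tnfsf11, was at 6.01 to 8.89 CPM (read counts scaled to library size with TMM factors) in the controls and at 2390 to 4812 CPM in RANKL, the direction the labels give. Thymocyte transcripts made up much less of the RANKL libraries: the summed CPM of 6 genes of the T cell receptor complex and its kinase (Cd3d, Cd3e, Cd3g, Cd247, Lck and Cd2) was 3831 to 5249 in control and 273 to 709 in RANKL. Of these RANKL libraries, replicate 3 held the most. Fewer cells of a type and less RNA per cell cannot be told apart in such bulk samples.

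Of the 9 genes, Il15 and Il15ra rose, Il2rg, Il21r and Il9r fell, and Il7, Il7r and Il2rb did not pass the test (edgeR's quasi-likelihood test, Benjamini-Hochberg adjusted p under 0.05). Il2 had too few reads to be tested. The median log2 fold change of the 8 tested genes was -0.30, beside -0.02 over all 16096 genes tested. RANKL moved a large part of the transcriptome, so these counts stand against a high background: 63.4% of tested genes were called, 33.8% higher and 29.6% lower. All RANKL libraries lay above all controls for 2 of the 8 genes and below them for 2, where 36.1% and 34.1% of tested genes did so.

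**Figure D1:**
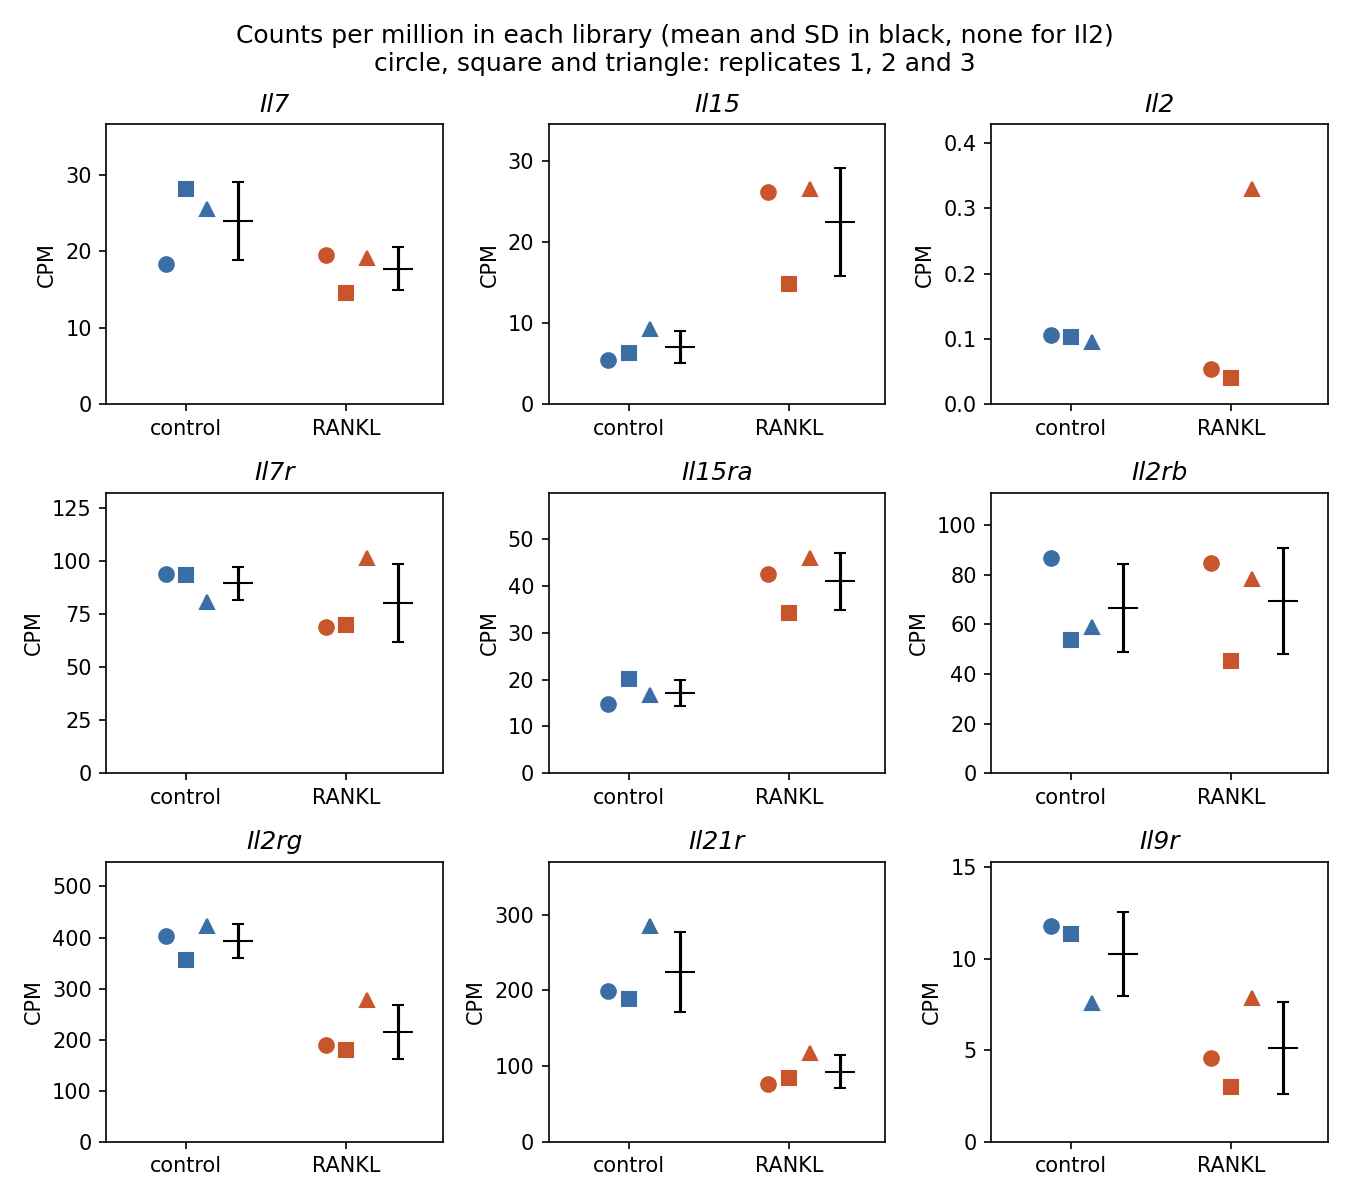
CPM of each gene (vertical axes from 0, a separate scale per gene) in the 3 control (blue) and 3 RANKL (orange) libraries, with the mean and SD in black except for Il2, which rests on 1 to 7 reads per library. The groups are separate for Il15, Il15ra, Il2rg and Il21r and overlap for the other genes.

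Il15 (Entrez gene 16168, chromosome 8, 82331624 to 82403252 in GRCm38), the ligand that supports NK cells, stood at 5.48, 6.34 and 9.22 CPM in control replicates 1, 2 and 3. In RANKL replicates 1, 2 and 3 it stood at 26.1, 14.8 and 26.5 CPM. Every RANKL library was above every control, with replicate 2 the lowest of the RANKL libraries. The group means were 7.01 ± 1.96 and 22.5 ± 6.65 CPM (SD, n = 3 each), a 3.20-fold rise, with a log2 fold change of 1.68 ± 0.30 (SE, edgeR quasi-likelihood adjusted p = 0.000943).

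Il15ra (Entrez gene 16169, chromosome 2, 11705172 to 11733985), the chain that presents IL-15, rose with it. Its level was 14.7, 20.2 and 16.7 CPM in the controls and 42.6, 34.2 and 46.1 CPM in RANKL. The groups did not overlap, and replicate 2 was again the lowest RANKL library. Means of 17.2 ± 2.78 and 41.0 ± 6.12 CPM (SD, n = 3 each) gave a 2.38-fold rise and a log2 fold change of 1.25 ± 0.20 (SE, edgeR quasi-likelihood adjusted p = 0.000441). The ratio of Il15ra to Il15 within a library, on the log2 scale of CPM plus 0.1, went from 1.31 ± 0.41 to 0.90 ± 0.27 (SD, n = 3 each), and its groups overlapped (exact permutation p = 0.2, two-sided, where 20 splits allow no p below 0.1). A difference in size between these rises was therefore not shown.

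IL-15 and its presenting chain are made by myeloid, dendritic, epithelial and stromal cells, and markers of several of these rose in the same libraries. Macrophage and monocyte markers were called higher in 10 of 10, where 33.8% of all tested genes were. Their summed CPM was 1101 to 1385 in control and 2546 to 3486 in RANKL. Dendritic cell markers were higher in 4 of 8 and lower in 2, with sums of 167 to 245 and 296 to 422 CPM, which overlapped without Itgax (151 to 226 and 146 to 221 CPM). Medullary epithelium markers were higher in 8 of 8, from 771 to 931 CPM in control to 5536 to 7383 CPM in RANKL. The part of these cells in the Il15 and Il15ra values was not tested.

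Il15ra sits next to Il2ra, the interleukin 2 receptor alpha chain, on chromosome 2, with 11977 bases and no protein-coding gene between them. Il2ra rose as well, from 77.2 ± 12 to 220.7 ± 12 CPM (SD, n = 3 each), a log2 fold change of 1.51 ± 0.17. The 250 bases before a RefSeq start of Il15ra (chr2:11705462-11705711 in GRCm38, plus strand) are shown because Il15ra is the receptor chain of the axis that rose, and the capitals mark a motif match.
Il15ra: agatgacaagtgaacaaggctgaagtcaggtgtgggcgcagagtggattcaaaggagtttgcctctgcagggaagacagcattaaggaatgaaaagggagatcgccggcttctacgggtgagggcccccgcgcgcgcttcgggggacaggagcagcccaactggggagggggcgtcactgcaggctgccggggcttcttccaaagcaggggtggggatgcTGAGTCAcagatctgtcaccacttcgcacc
The capitals are a match to the AP-1 motif TGANTCA, from -30 to -24 relative to the start, which 7.81% of 32851 RefSeq promoter windows of 300 bases held on either strand. The motif reads the same on both strands. The window of the other annotated start of Il15ra held no AP-1 match but a match to the ETS core CGGAAG, from -103 to -98. A match is a description of letters and not a site.

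Il7 (Entrez gene 16196, chromosome 3, 7572028 to 7613760), the ligand of thymic epithelium, was at 18.3, 28.2 and 25.6 CPM in control and at 19.5, 14.5 and 19.2 CPM in RANKL. Control replicate 1 lay within the RANKL range, so the groups overlapped. Means of 24.0 ± 5.10 and 17.7 ± 2.78 CPM (SD, n = 3 each) gave a log2 fold change of -0.44 with a 95% interval of -0.94 to 0.06 (edgeR adjusted p = 0.109). Without control replicate 1 it was -0.62 and passed the test (edgeR adjusted p = 0.0319). An antisense gene, Gm16685, overlaps Il7, and reads of both cannot be told apart because the strand setting of the counting is not given.

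Epithelial markers moved in opposite directions in the same libraries. Over all tested genes 29.6% were called lower and 33.8% higher. Cortical epithelium markers were lower in 7 of 9 and higher in 1, with summed CPM of 4251 to 5863 in control and 1137 to 1699 in RANKL, while the medullary markers given above were higher. The epithelial adhesion gene Epcam was at 46.7 ± 1.03 CPM in control and 11.3-fold higher in RANKL, at 527 ± 35.8 CPM (SD, n = 3 each). The log2 ratio of Il7 to Epcam went from -0.98 ± 0.32 to -4.90 ± 0.24 (SD, n = 3 each), with every RANKL library below every control (exact permutation p = 0.1, the smallest possible), most of it the rise of Epcam. The part of these cells in the Il7 value was not tested. The log2 ratio of Il15 to Il7 was -1.72, -2.14 and -1.46 in control replicates 1, 2 and 3 and 0.42, 0.03 and 0.47 in RANKL, a 4.22-fold shift of the ratio (exact permutation p = 0.1).

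Il2 (Entrez gene 16183, chromosome 3, 37120713 to 37125954), the growth factor of activated T cells, had 2, 2 and 2 reads in control and 1, 1 and 7 in RANKL. Most of these values lie below a floor of 3 reads in a library, 0.122 to 0.161 CPM. The group totals were 9 reads in RANKL and 6 in control. Scaled to library size, their ratio was 1.38 with a 95% exact counting interval of 0.439 to 4.72, so no difference was detectable at this depth. Intervals and floors cover counting error only.

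Il2rg (Entrez gene 16186, chromosome X, 101264385 to 101268255), the shared gamma chain, was at 403, 357 and 422 CPM in control and at 190.4, 179 and 277 CPM in RANKL. All RANKL libraries were below all controls, with RANKL replicate 3 the highest of them. The mean went from 394 ± 33.6 to 215 ± 53.5 CPM (SD, n = 3 each), 1.83-fold lower, with a log2 fold change of -0.87 ± 0.20 (SE, edgeR quasi-likelihood adjusted p = 0.00391). A test against a 1.5-fold change did not call it (edgeR adjusted p = 0.0642). GENCODE places a protein-coding gene, Gm20489, on the same strand over Il2rg, and it has no row in the table.

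Il21r (Entrez gene 60504, chromosome 7, 125603252 to 125634397), the receptor chain for IL-21, a cytokine of follicular helper T cells, was at 199, 188 and 285 CPM in control. In RANKL it was at 76.3, 84.8 and 117 CPM. The groups were separate, with replicate 3 the highest in each. Means of 224 ± 52.7 and 92.8 ± 21.6 CPM (SD, n = 3 each) made it 2.41-fold lower, a log2 fold change of -1.27 ± 0.22 (SE, edgeR quasi-likelihood adjusted p = 0.00087). Its ligand Il21 had a log2 fold change of -1.06 ± 0.46 that did not pass the test (edgeR adjusted p = 0.0691), but passed without control replicate 3 (0.0153).

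The neighbour of Il21r moved the other way. Il4ra, the interleukin 4 receptor chain, starts upstream on chromosome 7 with 23777 bases and no protein-coding gene between them, and it rose from 269 ± 42.6 to 556 ± 155 CPM (SD, n = 3 each), a log2 fold change of 1.05 ± 0.22 (edgeR adjusted p = 0.0027). Among the tested genes of the axis, Il2rg and Il21r had the most alike profiles, with a root mean square difference of 0.24 on the log2 scale over the 6 libraries after centring each gene. The log2 ratio of Il21r to Il2rg went from -0.84 ± 0.24 to -1.21 ± 0.12 (SD, n = 3 each), with RANKL below control in every pair of libraries (exact permutation p = 0.1, the smallest possible).

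The 250 bases before the annotated start of the gamma chain gene (chrX:101268256-101268505 in GRCm38, minus strand) are shown because this chain is shared by the receptors for IL-2, IL-7, IL-9, IL-15 and IL-21.
Il2rg: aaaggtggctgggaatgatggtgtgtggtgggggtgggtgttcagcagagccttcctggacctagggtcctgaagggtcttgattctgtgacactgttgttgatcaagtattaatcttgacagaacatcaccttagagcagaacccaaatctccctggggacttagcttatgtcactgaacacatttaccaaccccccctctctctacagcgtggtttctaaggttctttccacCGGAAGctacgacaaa
The capitals match the ETS core CGGAAG, from -16 to -11, which 16.9% of promoter windows held on either strand. The windows of Il21r and Il9r, the other receptor chains that fell, held no match to this core, to the AP-1 motif or to the STAT motif TTCNNNGAA (8.30% of windows). For Il9r, on the minus strand, the 250 bases searched upstream (chr11:32200280-32200529) adjoin the GENCODE start at 32200279. They lie inside the RefSeq span of the gene, which reaches 32205283, and the start of that span was not searched.

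Il7r (Entrez gene 16197, chromosome 15, 9506159 to 9529941), the receptor chain of IL-7, was at 94.1, 93.5 and 80.7 CPM in control and at 69.1, 69.9 and 102 CPM in RANKL. RANKL replicate 3 lay above every control and the other RANKL libraries below them. Means of 89.5 ± 7.58 and 80.2 ± 18.5 CPM (SD, n = 3 each) gave a log2 fold change of -0.16 with a 95% interval of -0.58 to 0.26 (edgeR adjusted p = 0.482). Its promoter window was the only one of the 6 genes matched that held the STAT motif, as TTCAGGGAA from -142 to -134.

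Il2rb (Entrez gene 16185, chromosome 15, 78479256 to 78511621), the signalling chain that IL-2 and IL-15 share, was at 87.0, 53.8 and 59.1 CPM in control and at 84.8, 45.3 and 78.4 CPM in RANKL. The ranges overlapped almost fully. Its log2 fold change was 0.06 with a 95% interval of -0.53 to 0.65 (edgeR adjusted p = 0.853). An unchanged level was therefore not shown, and the sign of the value turned without control replicate 2 (-0.10), control replicate 3 (-0.036) or RANKL replicate 1 (-0.064).

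Il9r (Entrez gene 16199, chromosome 11, 32187544 to 32205283), the receptor chain of IL-9, was at 11.8, 11.3 and 7.60 CPM in control and at 4.58, 2.97 and 7.87 CPM in RANKL. RANKL replicate 3 lay just above control replicate 3, so the groups overlapped. Means of 10.2 ± 2.29 and 5.14 ± 2.50 CPM (SD, n = 3 each) gave a log2 fold change of -0.99 ± 0.37 (SE, edgeR quasi-likelihood adjusted p = 0.0387). The call was lost without control replicate 1 (edgeR adjusted p = 0.0881), control replicate 2 (0.0957), RANKL replicate 1 (0.103) or RANKL replicate 2 (0.104), and without RANKL replicate 3 the value was -1.41 (0.00744). It was also lost when libraries with title numbers in one range were fitted as a block (-0.87, edgeR adjusted p = 0.148).

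Listed markers of mast cells, a main target of IL-9, moved in the opposite direction to Il9r, with 8 of 8 higher, where 33.8% of all tested genes were. Their summed CPM was 25 to 43.6 in control and 200 to 260.2 in RANKL. Most of that rise was Hdc, and without it the sums were 17.8 to 21.1 CPM in control and 69.7 to 77.1 CPM in RANKL. The part of mast cells and of other cells in these marker values was not tested. The ligand Il9 itself had 0, 0 and 3 reads in control and 51, 26 and 42 in RANKL. Scaled to library size, the group totals had a ratio of 36.5 with a 95% exact counting interval of 12.2 to 180. The edgeR log2 fold change of Il9 was 5.09 ± 0.85 (SE, edgeR quasi-likelihood adjusted p = 0.000635). All the control reads of Il9 came from replicate 3, so the size of its rise is uncertain. Without that library no control read was left and the fitted value was 8.30, which depends on the prior count and is no bound.

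Compared per kilobase of exon, so that genes of different length can be set side by side, Il2rg was the most abundant of the 9 in both groups, at 165 ± 14.1 CPM per kb in control and 90.3 ± 22.4 in RANKL (SD, n = 3 each). Il21r followed with 67.4 ± 15.9 and 27.9 ± 6.51 CPM per kb, separate from Il2rg and from the next gene in each group. Il7r and Il2rb came next, and their ranges overlapped in both groups, with Il7r at 19.2 ± 1.63 and Il2rb at 15.5 ± 4.16 CPM per kb in control. In control Il7, Il15ra and Il15 were close, at 4.24 ± 0.90, 3.87 ± 0.63 and 3.10 ± 0.87 CPM per kb, and each overlapped the next. In RANKL Il15 and Il15ra, at 9.94 ± 2.94 and 9.22 ± 1.38, overlapped each other and both lay above Il7, at 3.13 ± 0.49. Il9r and Il2 were the lowest in both groups.

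**Figure D2:**
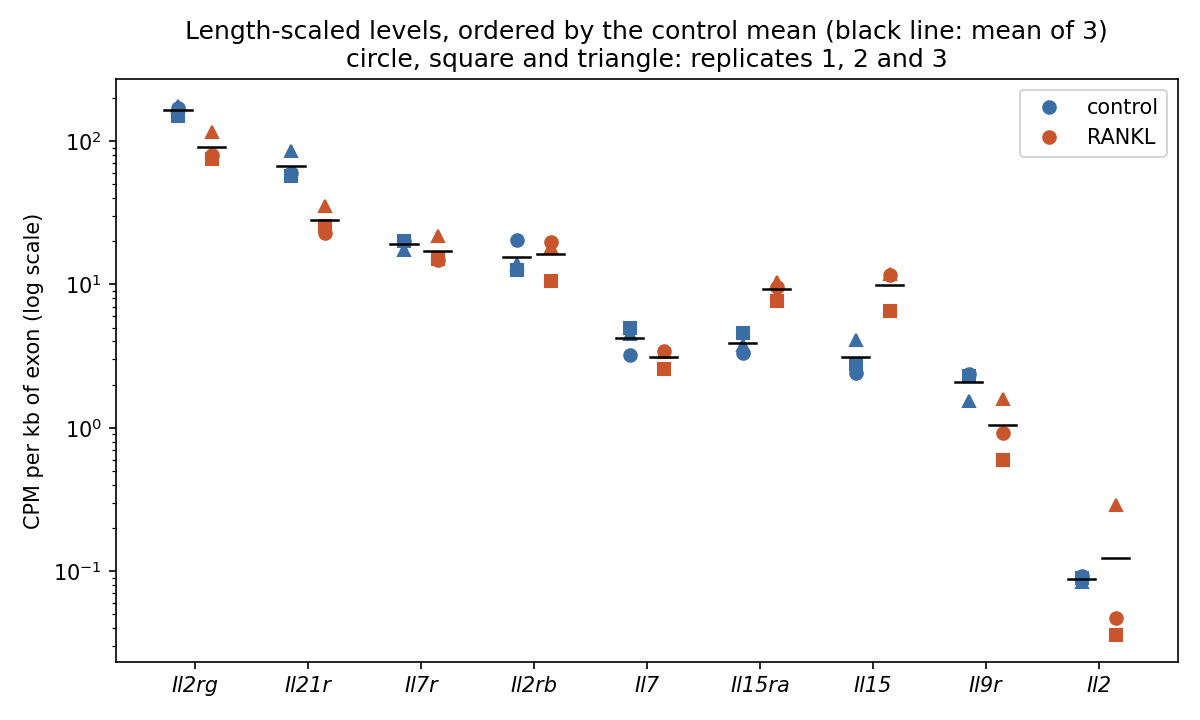
CPM per kilobase of exon (log axis) for the 9 genes, ordered by the control mean, in control (blue) and RANKL (orange) libraries, with black lines at the means of 3. Il2rg leads in both groups, and Il15 and Il15ra pass Il7 in RANKL.

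The fold changes of the receptor chains were smaller than those of Cd3e and Ptprc. Cd3e, a subunit of the T cell receptor complex, was 7.19-fold lower in RANKL, and the leukocyte phosphatase gene Ptprc 3.57-fold lower. A ratio to either is therefore higher for any gene that fell less, and the median log2 fold change of all tested genes was -0.02. The log2 ratio of Il7r to Cd3e was -2.12, -1.89 and -2.52 in control and 1.08, 0.66 and 0.13 in RANKL, a 6.97-fold higher ratio. The ratio to Cd3e was 8.10-fold higher for Il2rb, 4.24-fold higher for Il2rg and 3.27-fold higher for Il21r, and RANKL replicate 1 had the highest value for each.

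Ratios between chains of one receptor also lay apart in the groups. The log2 ratio of Il2rb to Il2rg was -2.21, -2.73 and -2.83 in control and -1.17, -1.98 and -1.82 in RANKL, and that of Il7r to Il2rg went from -2.14 ± 0.23 to -1.42 ± 0.06 (SD, n = 3 each). Per unit of Ptprc, which itself was 3.57-fold lower, Il2rg was 2.00-fold, Il15ra 8.83-fold and Il15 11.7-fold higher in RANKL. The ratio of Il2rb to Il15ra was 2.31-fold lower. Of 15 ratios computed, 10 were higher and 3 lower in every RANKL library than in every control, and 2 overlapped, Il15ra to Il15 and Il7r to Il7. The 10 include every ratio to Cd3e and Ptprc, and the fall of these genes goes into them. Each of the 13 has an exact permutation p of 0.1, the smallest that 3 against 3 libraries can give, or 0.115 after Benjamini-Hochberg adjustment over the 15, so none can pass a threshold of 0.05.

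**Figure D3:**
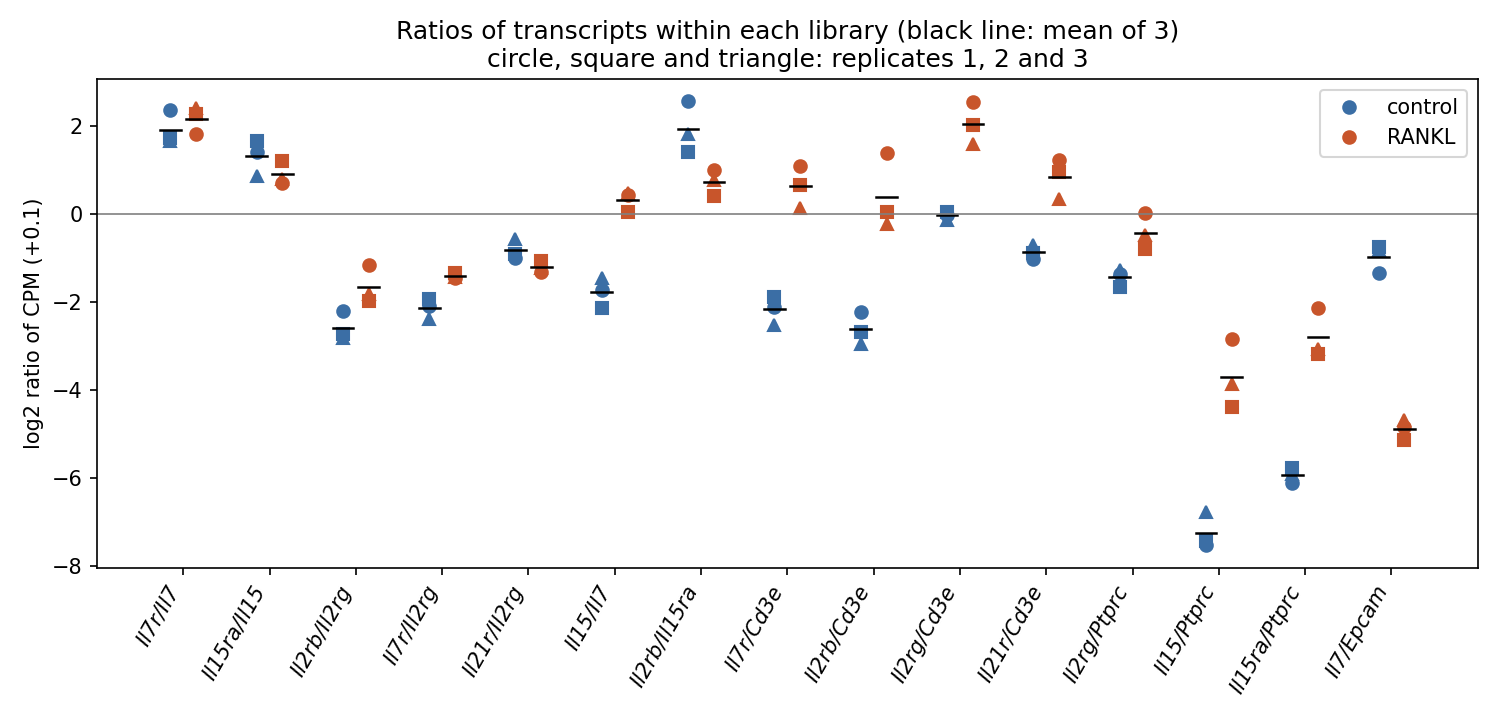
Log2 ratio of CPM (plus 0.1) of transcript pairs within each control (blue) and RANKL (orange) library, with black lines at the means of 3. Ratios to Cd3e and Ptprc, which fell, are higher in all RANKL libraries, and the ratio of Il7 to Epcam, which rose, is lower.

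Markers of the cells that carry these receptors did not move as one. The counts below stand beside 33.8% of all tested genes called higher and 29.6% lower. Double-positive thymocyte markers, of the CD4 and CD8 precursors that lack much Il7r, were lower in 10 of 10, with summed CPM of 9526 to 10551 in control and 197 to 894 in RANKL. Early thymocyte markers, of cells that depend on IL-7, were higher in 8 of 10 and lower in 1, from 303 to 510 CPM up to 805 to 979. Most of that rise was Cd44, an adhesion receptor of many cell types. Without it the sums were 248.9 to 444.5 CPM in control and 443.9 to 467.9 CPM in RANKL, which overlapped. The list also holds Il2ra, the receptor chain given above, which rose from 77.2 to 220.7 CPM. The gene of the list that fell was Dtx1, a Notch target, 3.12-fold lower, and Ptcra, part of the first receptor of early thymocytes, counted here with the double-positive markers, was 34.1-fold lower. Markers of mature and naive T cells were higher in 1 of 8 and lower in 3, with 4 that did not pass the test. Their sums of 1294 to 1644 and 388 to 611 CPM differed mainly through Ccr9, a chemokine receptor, and overlapped without it (501 to 688 and 369 to 523 CPM). NK and innate lymphoid markers, of the main responders to IL-15, were higher in 4 of 13 and lower in 2, with sums of 213 to 262 and 247 to 339 CPM. Without Gzma, which fell, the sums were 158 to 201 CPM in control and 236 to 310 CPM in RANKL and lay apart. The 4 called higher were Id2, Gzmb, Tbx21 and Eomes. Id2 went from 84.8 ± 9.87 to 128.6 ± 20.4 CPM and Gzmb from 4.26 ± 0.77 to 40.4 ± 13.3 CPM (SD, n = 3 each). Most of the difference between the sums without Gzma was Id2 and Gzmb. The 2 called lower were Gzma and Zbtb16. For Zbtb16 the groups overlapped and the value lay just under the threshold (edgeR adjusted p = 0.0496). The other 7, Klrb1c, Klrd1, Klrk1, Klra7, Nkg7, Prf1 and Ncr1, did not pass the test. Among them the NK receptor gene Ncr1, at 2.22 CPM in control, had a log2 fold change of -0.16 ± 0.44 (edgeR adjusted p = 0.765). Regulatory T cell markers, of cells that need IL-2, were higher in 2 of 5 and lower in 1 (129 to 157 and 106 to 187 CPM), and B cell markers, of cells that also use Il21r, in 0 of 7 in either direction (138 to 152 and 76.0 to 161 CPM). No marker found in the table had 0 reads in every library. The part of these cells in the receptor values was not tested.

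Other ligands and receptor chains of the family were mostly higher. Of 7 listed genes 6 rose and 1, Il21, did not pass the test, with a median log2 fold change of 1.51. Over all tested genes 33.8% were called higher and 29.6% lower, the background for this list and the pathway lists below. Tslp, the epithelial cytokine that signals through Il7r and Crlf2, rose from 1.13 ± 0.57 to 7.01 ± 3.90 CPM (SD, n = 3 each; log2 fold change 2.63 ± 0.53). Crlf2, the partner chain of Il7r in the Tslp receptor, rose from 16.0 ± 1.58 to 32.4 ± 1.04 CPM (1.01 ± 0.17). Il2ra and Il4ra rose as given above, and Il4, the ligand of the latter, also rose (1.70 ± 0.47), a call lost without RANKL replicate 3 (edgeR adjusted p = 0.0536), with the title-number block (1.41, 0.0669) and at a threshold of 0.01. Il2ra and Il4ra, whose chains pair with the gamma chain, thus rose while Il2rg fell.

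Among 7 kinases and transcription factors that carry the signal, 1 rose, 2 fell and 4 did not pass the test, with a median of 0.00. Stat5b, a main effector of IL-7 and IL-2, fell from 398 ± 44.2 to 90.9 ± 21.4 CPM (SD, n = 3 each; log2 fold change -2.13 ± 0.20). Its close relative Stat5a was at -0.26 ± 0.19 (edgeR adjusted p = 0.269). Jak1, which pairs with Il7r, Il2rb and Il21r, fell by 0.59 (edgeR adjusted p = 0.0107). The call of Jak1 was lost at a threshold of 0.01 and against a 1.5-fold change (edgeR adjusted p = 0.395). Jak3, which binds the gamma chain, was at 0.64 ± 0.29 (edgeR adjusted p = 0.0816). It passed without control replicate 2 (0.0286), without RANKL replicate 1 (0.0143) or with the title-number block (0.82, 0.0439). Stat3, used by IL-21 and by many other cytokines, rose from 220 ± 34.0 to 609 ± 9.79 CPM (1.47 ± 0.17).

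Of 7 feedback inhibitors 3 rose, 1 fell and 3 did not pass the test. Cish, a target of STAT5, rose from 26.4 ± 4.77 to 187 ± 15.8 CPM (SD, n = 3 each; log2 fold change 2.83 ± 0.18). Socs2, another STAT5 target, rose by 2.79 ± 0.19 and Socs3, a target of STAT3, by 3.38 ± 0.26. Socs1, which restrains gamma chain cytokines in T cells, was at -0.33 ± 0.21 (edgeR adjusted p = 0.19). Ptpn6, a phosphatase of blood cells, fell by 0.66. The call of Ptpn6 was lost without RANKL replicate 1 (edgeR adjusted p = 0.0536), against a 1.5-fold change (0.262) and at a threshold of 0.01. Cish and Socs2 are also induced by other cytokines and growth factors in epithelial and myeloid cells.

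Survival and metabolic targets were split, with 5 of 14 higher, 2 lower and 7 that did not pass the test, and a median of 0.06. Bcl2, the survival factor that IL-7 maintains, was at 61.9 ± 4.25 and 55.6 ± 16.8 CPM (SD, n = 3 each; log2 fold change -0.16 ± 0.23, edgeR adjusted p = 0.563). Its relative Bcl2l1, which keeps double-positive thymocytes alive, fell by 1.07. The kinase gene Pim1 rose by 1.38 ± 0.20, and the glucose transporter gene Slc2a1 and the hexokinase gene Hk2 by 2.76 ± 0.23 and 2.98 ± 0.31.

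The PI3K arm had 5 of 8 genes lower, where 29.6% of all tested genes were. In it 1 gene was higher and 2 did not pass the test, and the median was -0.64. Pik3r1, the regulatory subunit, fell by 0.87 and the catalytic Pik3ca by 0.93, while the catalytic Pik3cb rose by 1.42 ± 0.21. Of 9 transcription factors known to act on the receptor genes, 4 rose and 5 fell. Gfi1, a repressor of Il7r, fell from 100.2 ± 7.47 to 9.00 ± 4.60 CPM (SD, n = 3 each; log2 fold change -3.47 ± 0.34), and Ets1 fell by 2.71. Spi1, an activator of Il7r in early progenitors and a myeloid factor, rose by 2.01 ± 0.20, and Nfil3, needed for NK cells, by 3.0 ± 0.26. Over the 52 genes of these 6 lists 20 were higher and 15 lower, 17 did not pass the test, and the median was 0.01. These shares lie near the 33.8% higher and 29.6% lower of all tested genes, whose median was -0.02.

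**Figure D4:**
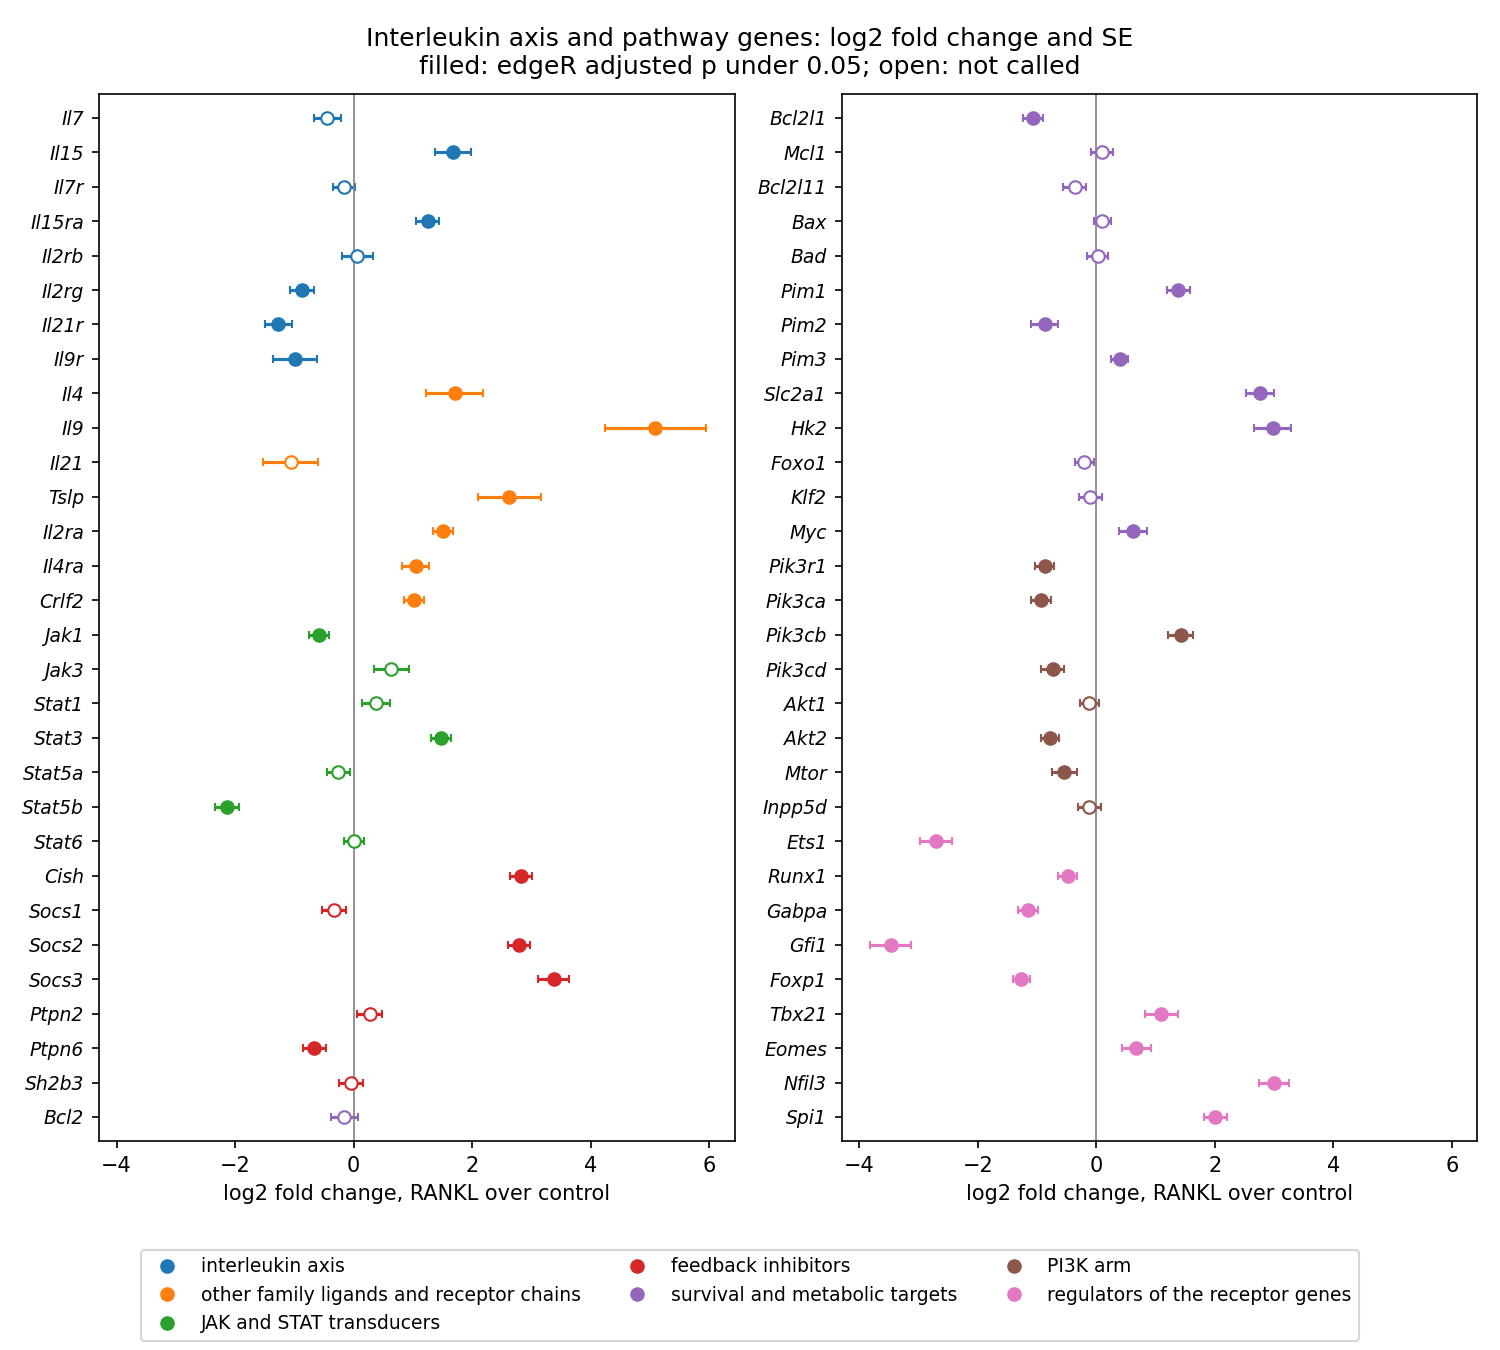
Log2 fold change with SE, RANKL over control, for the 8 tested genes of the axis and 52 other genes of its pathway, coloured by list. Filled points passed the test; Cish, Socs2 and Socs3 stand to the right and Stat5b, Ets1 and Gfi1 to the left.

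The genes most alike to each member across the 6 libraries were found by the root mean square difference of centred log2 profiles. The search covered 13340 other tested genes whose average log2 CPM was 1 or more. It left out predicted genes (Gm or LOC symbols), symbols ending in Rik and pseudogenes (-ps symbols). For Il15 the most alike genes were Xaf1, H2-Eb1 and Cd74, at differences of 0.13, 0.14 and 0.16. For Il15ra they were Lefty1, Il23r and Map3k19, at 0.07 to 0.11, and for Il2rg Arhgap25, Morn2 and Isg20, at 0.06 to 0.08. Il21r was nearest to Znrd1, Tdrp and Lrrc61, and Il9r, the least closely matched, to Tmem81, Slc27a6 and Gprasp2 at 0.20 to 0.22. For the genes that did not pass the test the nearest were Zfp365, Sdccag8 and H2-Q5 (Il7), Mlxipl, Mef2b and BC024978 (Il7r) and Gfap, Akap2 and Pltp (Il2rb). H2-Q5 belongs to a family of near-identical genes and its reads may be shared. The differences expected from so wide a search alone were not computed, so these matches are description only. Among the genes of the axis themselves, Il7 and Il7r differed by 0.31, Il15 and Il15ra by 0.35, and Il15 and Il21r by 1.49, the widest of the 28 pairs.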

How the data were processed

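Total RNA of thymus was made into stranded mRNA libraries from 250 ng, per the labels' protocols. The authors deposited unnormalized read counts for each gene in each library. STAR and mm10 were used, per the submitters' processing notes. The counting program, how it treated strand and its gene models are not stated, so overlapping and antisense genes may share reads. Replicates are not said to be separate animals, so p-values reflect only how far these samples differ, which may be technical.

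Genes kept by filterByExpr (16096) were tested with edgeR 4.0.16 in R 4.3.3 (TMM, robust quasi-likelihood, two-sided, no covariate). P-values were adjusted over all of them with a threshold of 0.05. Standard errors come from the F statistic. Ratios used log2 of CPM plus 0.1 and exact permutation over 20 splits. Coordinates are RefSeq's and exon lengths the union of GENCODE M21 exons, both on GRCm38, the assembly of mm10. RefSeq promoter windows matched 6 of the 9 genes; not matched were Il7, Il15 and Il2rb. Adgre1 was found under the older symbol Emr1, and Ly6g was not analysed here. From the list of the PI3K arm 1 gene is not reported here.

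All 9 genes are named whatever their outcome. From each pathway list up to 4 genes with the smallest p were eligible to be named, with Il2ra, Il4ra, Tslp, Jak1, Jak3, Stat5a, Stat5b, Socs1, Cish and Bcl2 in any case. The naming of Il4, Il21, Thy1, Dtx1, Ptcra and all the NK and innate lymphoid markers but Gzma followed a look at their values. Marker sums were also taken without the gene of largest CPM difference. The 3 most alike genes were named for each tested gene. The genes and lists were chosen with earlier results of these data known. On simulated counts with 200 changed genes, a change of 1.5-fold was called in 2% of genes, of 2-fold in 44% and of 4-fold in 100%, with 14967 tested. The simulation gave all genes a common spread and changed far fewer genes than the data, where 63.4% were called. These shares therefore do not give the power of the comparison made here. Alternatives were other factors (RLE, upper-quartile, none), other filters, DESeq2 1.42.0, limma-voom 3.58.1, a non-robust fit, a test against a 1.5-fold change, a block for the title number, a threshold of 0.01 and each library left out. For ratios, pseudocounts of 1 and 0.01 and RLE factors were tried.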

Additional observations from a re-analysis of the deposited data

How the results depend on the processing

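Il15, Il15ra, Il21r and Il7r kept their direction and their side of the threshold in all 17 alternatives, with log2 fold changes from 1.5 to 1.91 for Il15, from 1.13 to 1.38 for Il15ra and from -1.45 to -1.08 for Il21r. Il9r was not called with upper-quartile factors (-0.88), library totals (-0.96), the title-number block (-0.87), a threshold of 0.01 or the test against a 1.5-fold change (both -0.99), and ran from -1.41 to -0.70 with a library left out. Il2rg was not called against a 1.5-fold change (-0.87), where 1 gene of the axis and 8 of the pathway were called lower, in place of 3 and 15; over all genes 16.5% were then called lower, in place of 29.6%. Il7 ran from -0.62 to -0.31 with a library left out, and Il2rb from -0.10 to 0.31. The sign of Il2rb turned with no filter (-0.028) and without control replicate 2 (-0.10), control replicate 3 (-0.036) or RANKL replicate 1 (-0.064). Bcl2 ran from -0.29 to 0.081, turning without RANKL replicate 2. Upper-quartile factors moved the median of all genes by 0.10 and no filter by -0.092, about the shift of Il2rb. The cause of the other changes was not tested. The 15 ratios kept their direction in the 9 alternatives run for each. The labels number no replicates, so libraries were not paired; the block is the range of the title number, where control replicate 2 stands alone. It changed the calls of Il9r, Il4 and Jak3 among the genes named. Depth limits Il2 and Il9.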

Other observations

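Markers of other cell types also moved with the groups, where 33.8% of all tested genes were called higher and 29.6% lower. Neutrophil markers were higher in 6 of 6 tested, with summed CPM of 15 to 35.6 in control and 1883 to 4470 in RANKL. Fibroblast markers were higher in 7 of 8, from 1783 to 2083 CPM up to 4305 to 8035, and the gene of the list that fell was Thy1, which thymocytes also express. Endothelial markers were higher in 5 of 7, from 184 to 221 CPM up to 250.1 to 336. Their part in the values of the interleukin axis was not tested.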
